A study of Mus musculus with 9 samples.

Results

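The set comprised 37 mouse genes of the peroxisome and of the fatty acid pathways that feed it: 13 peroxins, 11 peroxisomal oxidation enzymes, 6 acyl-CoA thioesterases, and a group of 7 made up of the Cyp4a genes and Vnn1. They were taken by gene symbol from count tables that list 24421 symbols. All 37 were listed, and all 37 passed the filter on low counts, which kept 14104 genes for testing. RNA came from whole liver of C57BL/6J mice aged 5 weeks and fasted for 6 h, and was compared between 5 control littermates (WT) and 4 mice in which OGT, the enzyme that attaches the sugar O-GlcNAc to proteins, had been deleted (OGT-deficient). The design text states that mice of both genders entered the study. The sources used here do not give how OGT was deleted, in which cells, or the sex of each mouse.

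Peroxisomes are organelles bounded by a single membrane that shorten very long and branched fatty acids, complete bile acid side chains and break down the hydrogen peroxide formed on the way. Peroxins build the organelle: they insert its membrane proteins, import its enzymes from the cytosol and drive its division. In rodent liver many genes for peroxisomal oxidation, for acyl-CoA thioesterases and for the fatty acid omega-hydroxylases of the Cyp4a subfamily are activated together by the nuclear receptor PPARalpha, which is active during fasting.

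The libraries held 32337861 to 54130901 reads assigned to genes, so that 3 reads correspond to 0.0554 to 0.0928 CPM, the read count scaled to library size. Ogt stood at 51.1 to 73.1 CPM in the 5 WT libraries and at 14.3 to 20.6 CPM in the 4 OGT-deficient libraries, without overlap. The Y-linked gene Ddx3y was present at 55.4 to 91.1 CPM in all 9 libraries, and Xist, transcribed from the inactive X chromosome, reached at most 1.13 CPM, while the design text names both genders. Liver identity genes were abundant in every library: the summed level of 14 hepatocyte markers was 130000 to 160900 CPM across WT and 70320 to 90340 CPM across OGT-deficient mice. Alignments to more than a single place, which enter no gene count, numbered 0.314 to 1.02 per assigned read in WT and 0.205 to 0.224 in the OGT-deficient libraries, with the largest values in WT 4 and WT 5.

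Most transcripts of the set were lower in OGT-deficient liver, and 0 were called higher by edgeR, DESeq2 or limma voom (0 also at an unadjusted p under 0.05 in edgeR). Of the 37 genes 27 fell, which is 73.0% of the set. Among all tested genes 61.1% were called, 29.4% lower and 31.6% higher. The median log2 fold change (OGT-deficient over WT) was -0.56 in the set and 0.02 over all genes tested. For 26 of the 37 genes every OGT-deficient library lay below every WT library, against 25.0% of all genes tested. At least 2-fold falls numbered 12 (32.4% of the set, 6.80% of all genes), and at least 4-fold falls numbered 8 (21.6% of the set, 1.38% of all genes). Adjusted p-values of single genes come from edgeR's quasi-likelihood test with Benjamini-Hochberg adjustment over all 14104 genes, and a gene is said to have risen or fallen where this value was under 0.05.

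**Figure D1:**
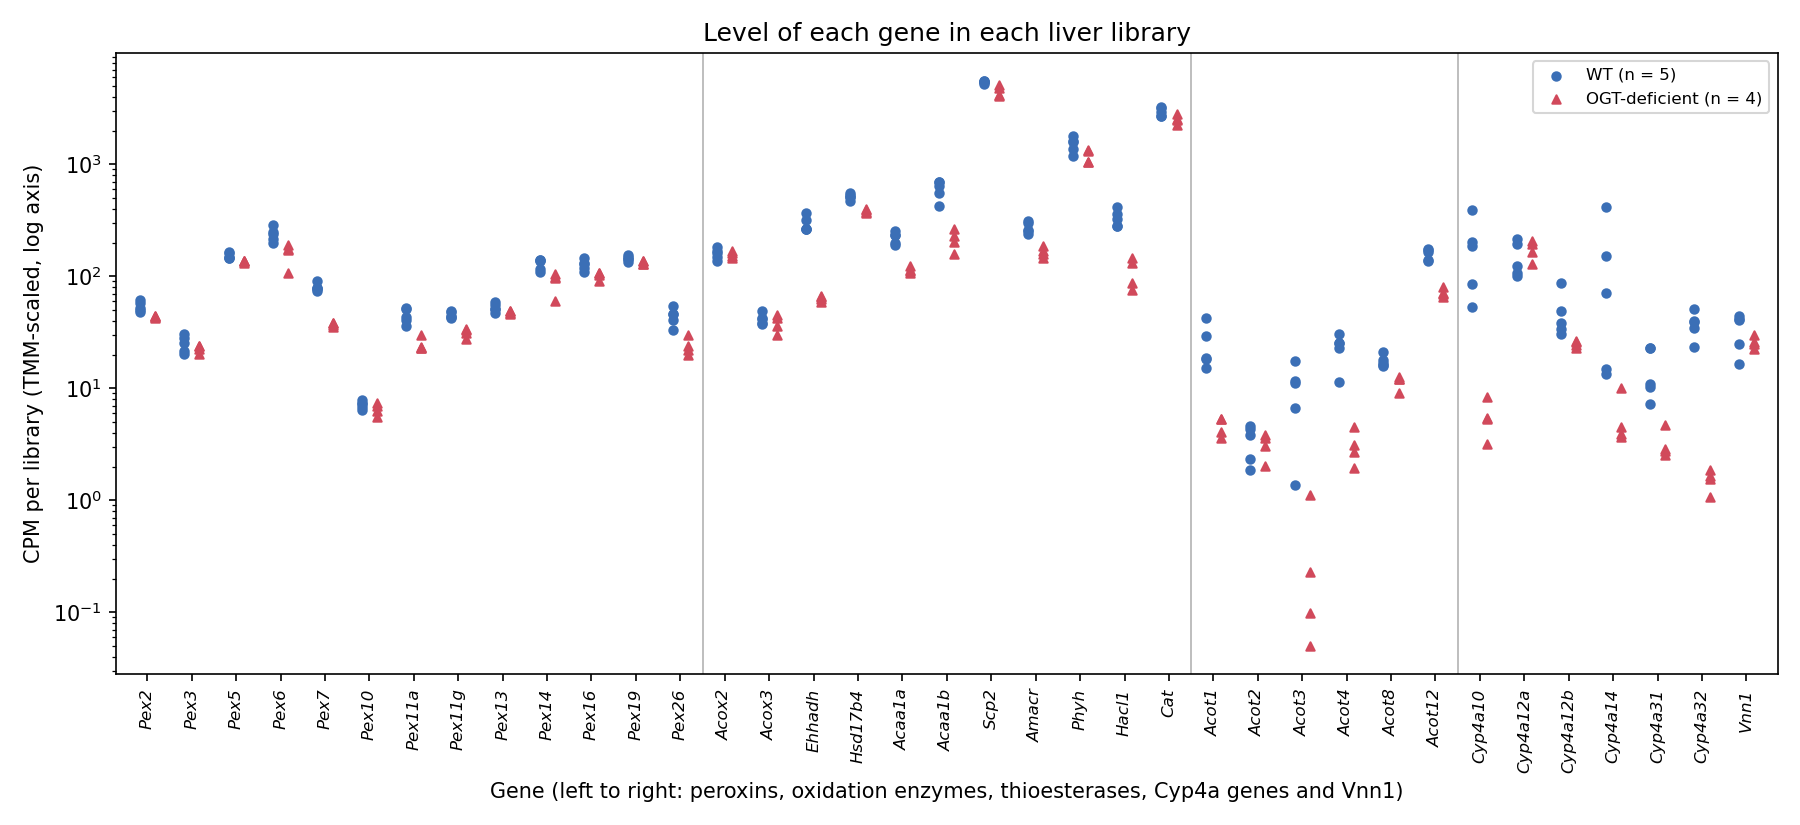
Level of each of the 37 genes in each library, in CPM on a log axis, with the 5 WT libraries as blue circles and the 4 OGT-deficient libraries as red triangles; vertical lines part the peroxins, oxidation enzymes, thioesterases, and the Cyp4a genes with Vnn1. The groups lie close together for most peroxins and apart for Ehhadh, Cyp4a10 and Cyp4a32; for Acot3 the lowest WT library (1.38 CPM) is just above the highest OGT-deficient library (1.12 CPM).

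By role, the median log2 fold change was -0.32 for the 13 peroxins, of which 9 fell, and -0.42 for the 11 oxidation enzymes, of which 8 fell. It was -1.79 for the 6 thioesterases, of which 5 fell, and -2.21 for the Cyp4a genes with Vnn1, of which 5 of 7 fell. RNA from a whole tissue cannot tell fewer cells of a type from less RNA per cell. Of the 13 tested hepatocyte markers 10 fell (median log2 fold change -0.66) in the same libraries, and the other 3 were not called, and the part this takes in the values of the set was not tested.

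**Figure D2:**
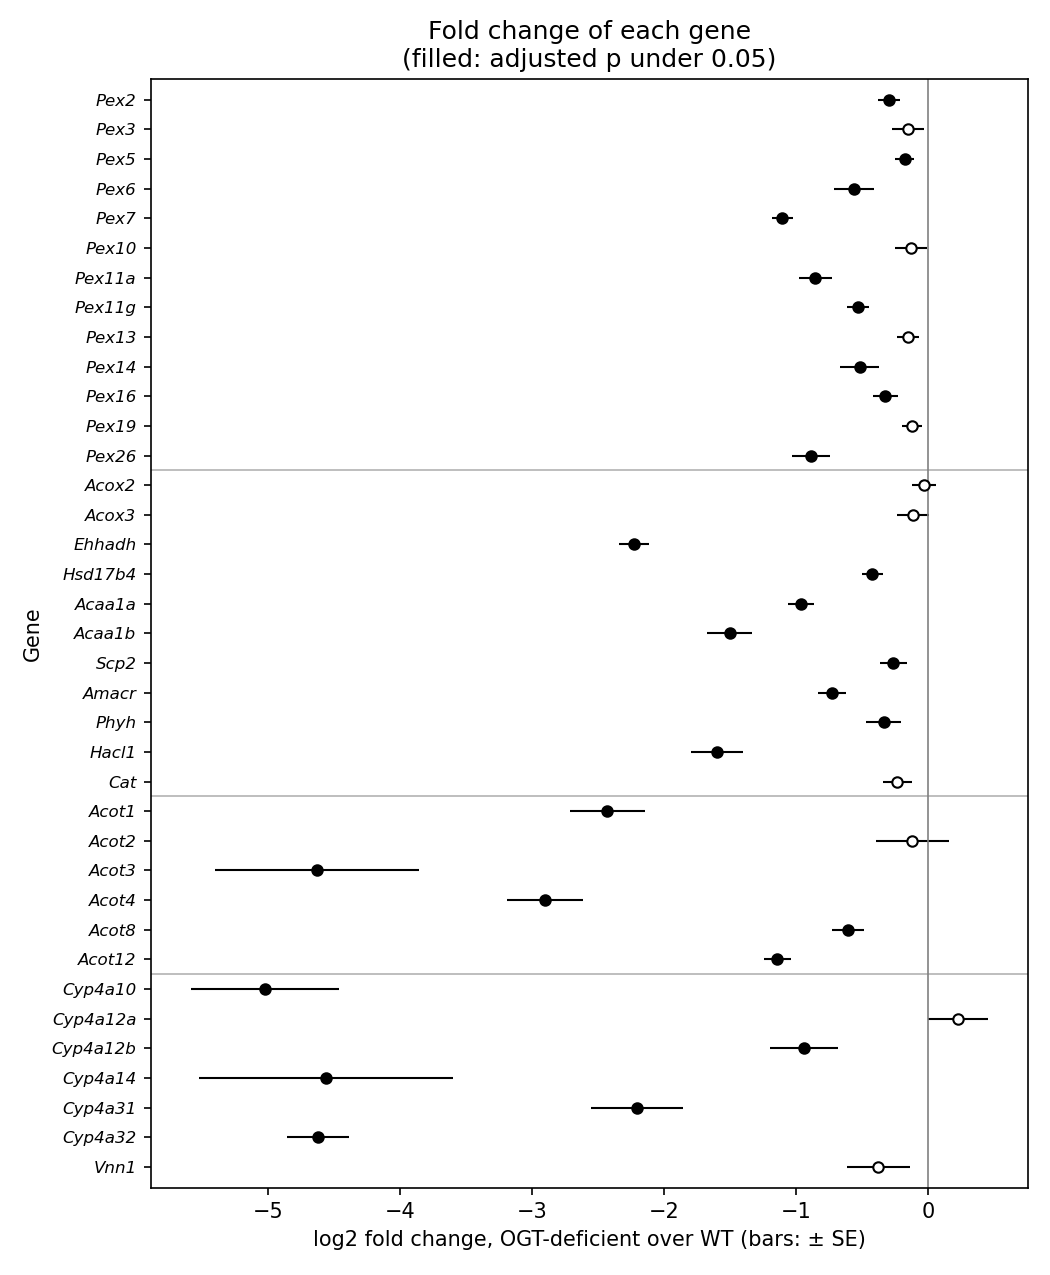
Log2 fold change of each gene, OGT-deficient over WT, with bars of ± SE from edgeR; filled points have an adjusted p under 0.05, and horizontal lines part the same groups of genes. Falls reach -5.02 for Cyp4a10, while the peroxins lie between -1.10 and -0.12.

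Among the peroxins the largest fall was that of Pex7, the cytosolic receptor that brings enzymes with the second type of targeting signal (PTS2) to the organelle. Pex7 measured 73.6, 90.5, 77.5, 78.0 and 79.3 CPM in libraries WT 1 to WT 5 and 35.2, 36.5, 38.6 and 38.2 CPM in libraries OGT-deficient 1 to OGT-deficient 4. The groups were far apart and each was narrow, and the mean fell to 46.5% of WT (log2 fold change -1.10, SE 0.08, adjusted p = 2.54e-07). Pex5, the receptor for the more common PTS1 signal, stood at 145.4 to 163.6 CPM across WT and 130.2 to 138.2 CPM across OGT-deficient mice. Its fall was small and close to the threshold (log2 fold change -0.18, adjusted p = 0.0493), and 12 of 17 alternative analyses did not call it.

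The ATPase that recycles these receptors and its membrane anchor both fell. Pex26, the anchor, measured 45.8, 41.1, 53.9, 33.5 and 46.1 CPM across WT and 19.7, 29.8, 22.1 and 24.0 CPM across OGT-deficient mice, without overlap (log2 fold change -0.89, SE 0.14, adjusted p = 1.71e-04). Pex6, an ATPase subunit, fell by 0.56 on the log2 scale, from a mean of 236.6 ± 32.7 CPM over 5 WT mice to 160.4 ± 35.8 CPM (SD) over 4 OGT-deficient mice. OGT-deficient 1 was the lowest library for Pex6, at 107.9 CPM against 170.8 to 188.6 CPM in the other three. Pex14, a subunit of the docking complex at the membrane, fell by 0.52 and also had its lowest value, 60.3 CPM, in OGT-deficient 1, against 95.9 to 105.6 CPM in the others. The calls for Pex6 and Pex14 held when that library was left out.

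Both peroxins that elongate and divide the organelle fell. Pex11a, which PPARalpha agonists induce in rodent liver, measured 36.0, 52.6, 43.2, 40.6 and 51.4 CPM across WT and 23.3, 23.0, 22.9 and 29.8 CPM across OGT-deficient mice (log2 fold change -0.86, SE 0.13, adjusted p = 8.14e-05). Pex11g measured 42.2 to 48.8 CPM across WT and 27.7 to 33.5 CPM across OGT-deficient mice (log2 fold change -0.53, adjusted p = 1.35e-04). Neither gene had overlapping groups.

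Factors that insert membrane proteins and subunits of the import ligase had smaller values. Pex16, which acts early in membrane assembly, fell by 0.32 and Pex2, a subunit of the ubiquitin ligase at the import pore, fell by 0.30 on the log2 scale. Their partners did not pass the test: the values were -0.15 for the membrane receptor Pex3 (adjusted p = 0.285), -0.12 for the chaperone Pex19 (0.162), -0.15 for the docking protein Pex13 (0.117) and -0.13 for the ligase subunit Pex10 (0.363). Pex10 was also the least abundant of the set's peroxins per length, at 2.16 CPM per kb of exon in WT.

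Values among the oxidation enzymes ran from a fall of more than 4-fold for Ehhadh to a log2 fold change of -0.03 for Acox2. Ehhadh, the L-bifunctional enzyme of peroxisomal beta-oxidation and a classic PPARalpha target, measured 266.9, 367.0, 265.1, 265.1 and 319.9 CPM across WT and 63.3, 58.9, 66.3 and 64.7 CPM across OGT-deficient mice. The OGT-deficient libraries lay within 1.13-fold of each other and far below WT, at 21.3% of the WT mean (log2 fold change -2.23, SE 0.11, adjusted p = 1.89e-08). Hsd17b4, the D-bifunctional enzyme that acts at the same steps on very long and branched substrates, fell from 513.6 ± 32.0 CPM over WT to 382.7 ± 15.7 CPM over OGT-deficient mice (± SD, log2 fold change -0.42, adjusted p = 5.25e-04).

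The thiolases Acaa1a and Acaa1b, which cleave the last intermediate of each cycle, are near-identical copies. Over their 1275 coding bases they matched at 96.5% of positions. Of the 50-base stretches of the longest Acaa1b transcript, 35.5% also occurred in Acaa1a, so the value of each is uncertain. Their first 120 coding bases, from GENCODE transcripts (GRCm38, chromosome 9), are shown because they let the size of that likeness be seen; capitals mark the 4 positions at which the copies differ.
Acaa1a: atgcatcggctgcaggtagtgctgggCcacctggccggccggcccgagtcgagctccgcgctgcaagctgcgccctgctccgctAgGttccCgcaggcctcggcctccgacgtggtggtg
Acaa1b: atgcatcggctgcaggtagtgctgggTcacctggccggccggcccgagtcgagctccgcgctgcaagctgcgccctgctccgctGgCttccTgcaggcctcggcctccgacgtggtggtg

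Acaa1b measured 556.7, 699.8, 428.4, 640.2 and 699.4 CPM across WT and 204.3, 157.3, 263.9 and 227.9 CPM across OGT-deficient mice. The groups did not overlap, and the gene fell to 35.3% of the WT mean (log2 fold change -1.50, SE 0.17, adjusted p = 9.86e-06). Acaa1a measured 191.3 to 252.3 CPM across WT and 106.4 to 123.3 CPM across OGT-deficient mice (log2 fold change -0.96, adjusted p = 3.99e-06). Their sum fell from 826.6 ± 139.2 to 327.3 ± 47.4 CPM (log2 fold change -1.34, adjusted p = 5.65e-06). Reads that align equally well to both copies enter no count, so the sum lacks them too. Genes on the opposite strand, Dlec1 and Myd88, cover 11.4% and 6.6% of the exonic bases of Acaa1b and Acaa1a, and the sources used here do not say whether counting used the strand.

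Alpha-oxidation removes a single carbon from fatty acids that carry a methyl branch, such as phytanic acid. Hacl1, the lyase of that pathway, measured 419.0, 363.1, 323.2, 280.4 and 282.7 CPM across WT and 75.5, 131.9, 145.2 and 87.9 CPM across OGT-deficient mice. It fell to 33.0% of the WT mean without overlap (log2 fold change -1.60, SE 0.19, adjusted p = 1.74e-05). Phyh, the hydroxylase one step before it, is imported through Pex7 as the thiolases are, and stood at 1178 to 1786 CPM across WT and 1050 to 1332 CPM across OGT-deficient mice. These groups overlapped, and the call was close to the threshold (log2 fold change -0.33, adjusted p = 0.0429) and was lost in 9 of 17 alternative analyses. Amacr, the racemase that prepares branched acyl-CoAs for beta-oxidation, fell from 273.1 ± 32.1 to 165.1 ± 17.5 CPM (log2 fold change -0.73, adjusted p = 7.09e-05).

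The most abundant genes of the set had small falls or were not called, and the branched-chain oxidases were not called. Per length, the highest WT levels were those of Scp2, a lipid carrier and thiolase, at 1562 CPM per kb of exon, Cat, the peroxide-degrading catalase, at 1132 and Phyh at 792.4. Scp2 stood at 5245 to 5522 CPM across WT and 4071 to 5079 CPM across OGT-deficient mice, with a log2 fold change of -0.26 (adjusted p = 0.0423, lost in 11 of 17 alternatives). Cat gave -0.23 (adjusted p = 0.0766), with 2674 to 3275 CPM across WT and 2233 to 2825 CPM across OGT-deficient mice, ranges that overlapped. Acox2, the oxidase of bile acid intermediates, measured 161.3, 149.3, 181.7, 138.1 and 167.6 CPM across WT and 145.0, 151.1, 160.9 and 166.8 CPM across OGT-deficient mice, so that the OGT-deficient values lay wholly within the WT range (log2 fold change -0.03, SE 0.09, adjusted p = 0.764; 0.0873 with upper-quartile scaling). Acox3, the pristanoyl-CoA oxidase, gave -0.12 (adjusted p = 0.415, and 0.0006 with upper-quartile scaling).

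The thioesterases cut acyl-CoAs into free fatty acid and coenzyme A. Acot1 to Acot4 lie side by side on the plus strand of chromosome 12 (83987861 to 84060402, GRCm38) and encode a cytosolic, a mitochondrial and 2 peroxisomal enzymes in that order of number. Acot1 measured 18.4, 42.5, 15.3, 18.6 and 29.1 CPM across WT and 5.29, 3.63, 5.33 and 4.09 CPM across OGT-deficient mice. It fell to 18.5% of the WT mean without overlap (log2 fold change -2.43, SE 0.29, adjusted p = 1.30e-05). Acot2, its neighbour and closest relative, measured 4.61, 3.80, 1.85, 2.36 and 4.29 CPM across WT and 3.58, 2.02, 3.85 and 3.04 CPM across OGT-deficient mice. The ranges of Acot2 covered each other (log2 fold change -0.12, SE 0.28, adjusted p = 0.720), and the sign of its value changed under 4 of the alternatives.

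Acot4 and Acot3, the peroxisomal members, also fell. Acot4 measured 23.0, 25.6, 11.4, 25.1 and 30.7 CPM across WT and 4.51, 1.94, 3.12 and 2.72 CPM across OGT-deficient mice (log2 fold change -2.90, SE 0.29, adjusted p = 3.17e-06). Acot3 measured 11.04, 17.4, 1.38, 6.66 and 11.5 CPM across WT and 1.12, 0.0504, 0.229 and 0.0979 CPM across OGT-deficient mice. Each group held a library apart from the rest: WT 3 lay far below the other WT libraries, with 49 reads, and OGT-deficient 1, with 53 reads, lay above the other three, which had 2, 12 and 4. The log2 fold change of Acot3 was -4.63 (SE 0.78, adjusted p = 2.23e-04), and -6.15 without OGT-deficient 1. Acot3 is known for higher expression in female than in male mouse liver, and the part of sex in its values was not tested.

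The 4 genes share long coding stretches, with 85.5% identity between Acot1 and Acot2, and 24.5% of the 50-base stretches of Acot2 also occur in Acot1, so the low Acot2 values are uncertain. Summed, the 4 genes fell from 60.9 ± 22.7 to 11.2 ± 2.998 CPM (log2 fold change -2.45, adjusted p = 1.16e-05). The 250 bases before each start aligned at 38.3% to 44.1% identity between any 2 of the 4 genes, and they are shown because neighbouring genes with these different changes begin there (RefSeq, GRCm38.p6, plus strand; chr12:84009252-84009501 for Acot1, chr12:83987611-83987860 for Acot2, chr12:84051894-84052143 for Acot3 and chr12:84038129-84038378 for Acot4). Capitals mark a match to GGNCANAGGNCA, a loose form of the repeated half-site that PPARalpha binds with its partner RXR, read on the minus strand; it ends next to the start of Acot4.
Acot1: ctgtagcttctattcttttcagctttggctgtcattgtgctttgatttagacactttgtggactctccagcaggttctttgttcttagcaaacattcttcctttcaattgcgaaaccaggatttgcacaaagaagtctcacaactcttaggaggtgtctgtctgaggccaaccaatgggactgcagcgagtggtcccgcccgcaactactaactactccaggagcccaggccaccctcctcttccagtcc
Acot2: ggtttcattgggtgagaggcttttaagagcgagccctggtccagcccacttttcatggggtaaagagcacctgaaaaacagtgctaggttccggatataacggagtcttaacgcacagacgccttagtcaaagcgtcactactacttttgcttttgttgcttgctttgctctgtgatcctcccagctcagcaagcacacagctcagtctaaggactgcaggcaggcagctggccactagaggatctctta
Acot3: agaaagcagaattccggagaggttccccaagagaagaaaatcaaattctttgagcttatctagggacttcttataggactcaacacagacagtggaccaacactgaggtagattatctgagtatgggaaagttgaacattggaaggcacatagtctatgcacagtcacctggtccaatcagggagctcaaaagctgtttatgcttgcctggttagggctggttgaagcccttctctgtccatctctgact
Acot4: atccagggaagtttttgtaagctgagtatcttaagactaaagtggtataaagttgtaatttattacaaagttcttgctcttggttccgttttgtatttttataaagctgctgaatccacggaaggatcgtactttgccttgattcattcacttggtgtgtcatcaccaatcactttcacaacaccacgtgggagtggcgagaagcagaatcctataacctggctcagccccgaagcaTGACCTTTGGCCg

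RefSeq promoters were matched for 27 of the 37 genes, with 32 windows of 250 bases. The half-site AGGTCA, searched on both strands, occurred in 5 of the 32 windows (those of Acot12, Acot4, Cat, Pex11g and Scp2) and in 14.0% of all 32851 windows. The full repeat AGGTCANAGGTCA and the form AGGNCANAGGNCA occurred in 0 of the 32 windows, and in 0.033% and 0.338% of all windows. GGNCANAGGNCA, tried after those results were seen, occurred in 4 of the 32 windows, those of Acot4, Acox2 and Pex11g, and in 0.694% of all windows. Some of these motifs contain others, a match is not a bound site, and the short windows leave out most of the surrounding sequence.

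The other thioesterases of the set lie on other chromosomes. Acot12, which hydrolyses acetyl-CoA in the cytosol, measured 140.9, 175.6, 136.5, 172.3 and 165.5 CPM across WT and 65.1, 71.1, 69.0 and 81.0 CPM across OGT-deficient mice, a fall to 45.2% of the WT mean (log2 fold change -1.14, SE 0.10, adjusted p = 1.42e-06). Acot8, a broad peroxisomal thioesterase, fell by 0.60 on the log2 scale, and 15.9% of its 50-base stretches also lie in the overlapping gene Snx21, so its value is uncertain. Outside the set, 10 of 12 listed thioesterase genes were tested, of which 4 rose and 2 fell. For comparison, 31.6% of all genes tested rose and 29.4% fell, so these few genes do not set the list apart from the background. Acot7 fell by 2.30 and Acnat1 fell by 1.09, while Them6 (1.55) and Acot9 (1.13) rose, as did Acot11 (1.17) and Them5 (2.07), named after their values were seen.

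Cyp4a enzymes add a hydroxyl group to the far end of fatty acids, the entry to omega-oxidation, whose dicarboxylic products are shortened in peroxisomes. The 6 genes lie within a single cluster on chromosome 4 (115299046 to 115621602, GRCm38) and fall into near-identical subgroups. Cyp4a10, Cyp4a31 and Cyp4a32 matched at 96.0% to 97.2% of coding positions and Cyp4a12a and Cyp4a12b at 98.5%, whereas Cyp4a14 matched the others at 74.8% to 75.8% of positions and shared 0.0% of its 50-base stretches with any listed gene. The stretches shown are from GENCODE transcripts and are given because reads from them decide which gene is counted; within each subgroup, capitals mark the positions at which the copies differ. The first 120 coding bases of the Cyp4a10 subgroup differ at 7 positions.
Cyp4a10: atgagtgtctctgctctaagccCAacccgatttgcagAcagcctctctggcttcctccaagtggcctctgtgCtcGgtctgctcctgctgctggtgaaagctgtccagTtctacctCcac
Cyp4a31: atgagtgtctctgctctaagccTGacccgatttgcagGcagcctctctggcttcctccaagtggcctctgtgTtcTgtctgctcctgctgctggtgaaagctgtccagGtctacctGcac
Cyp4a32: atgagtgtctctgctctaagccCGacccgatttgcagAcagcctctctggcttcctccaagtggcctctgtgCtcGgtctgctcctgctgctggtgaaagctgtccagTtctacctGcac
The first 120 coding bases of Cyp4a12a and Cyp4a12b differ at 0 positions, and coding bases 644 to 763, the window of this length with the most differences, at 8.
Cyp4a12a: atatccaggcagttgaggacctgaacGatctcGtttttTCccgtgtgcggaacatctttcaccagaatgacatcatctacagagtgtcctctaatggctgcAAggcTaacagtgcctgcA
Cyp4a12b: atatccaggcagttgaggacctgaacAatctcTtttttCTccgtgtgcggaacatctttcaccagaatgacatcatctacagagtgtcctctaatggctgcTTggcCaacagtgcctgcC

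Cyp4a10 and Cyp4a14, the omega-hydroxylases that PPARalpha agonists induce most in mouse liver, were low in every OGT-deficient library and varied widely among WT mice. Cyp4a10 measured 203.1, 389.7, 53.5, 84.6 and 185.4 CPM across WT and 5.33, 3.201, 8.42 and 5.46 CPM across OGT-deficient mice. It fell to 3.06% of the WT mean (log2 fold change -5.02, SE 0.56, adjusted p = 8.64e-06). Cyp4a14 measured 150.6, 413.1, 13.3, 14.98 and 70.3 CPM across WT and 4.53, 3.71, 10.1 and 3.89 CPM across OGT-deficient mice. WT 3 and WT 4 lay only slightly above OGT-deficient 3, the WT libraries spanned 31.1-fold, and the value of -4.56 on the log2 scale (SE 0.96, adjusted p = 0.00124) was -3.48 without WT 2.

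Cyp4a32 differed from these in having a narrow WT range. It measured 50.9, 40.3, 23.5, 39.2 and 34.8 CPM across WT and 1.08, 1.54, 1.66 and 1.86 CPM across OGT-deficient mice (log2 fold change -4.63, SE 0.23, adjusted p = 1.74e-08). Cyp4a31 measured 22.7, 23.1, 7.24, 10.96 and 10.2 CPM across WT and 2.87, 2.55, 4.67 and 2.77 CPM across OGT-deficient mice (log2 fold change -2.21, adjusted p = 1.43e-04). Other listed genes hold 46.8% of the 50-base stretches of Cyp4a32, 30.5% of those of Cyp4a10 and 21.8% of those of Cyp4a31, so the values of each are uncertain. The sum of the 3 genes fell from 235.8 ± 143.3 CPM over WT to 10.4 ± 3.16 CPM over OGT-deficient mice (± SD, log2 fold change -4.51, adjusted p = 3.66e-06).

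Cyp4a12a and Cyp4a12b, known for their higher expression in male than in female mice and for making the arachidonic acid product 20-HETE, gave other values. Cyp4a12a measured 106.8, 101.5, 124.0, 193.6 and 216.3 CPM across WT and 127.6, 207.8, 195.0 and 163.3 CPM across OGT-deficient mice. The ranges overlapped, and the fitted log2 fold change of Cyp4a12a was 0.23 (SE 0.23, adjusted p = 0.404). Its highest WT values were those of WT 4 and WT 5, the libraries with the most non-unique alignments. Without both, an alternative added after the data were seen, the value was 0.64 (adjusted p = 0.00578, a call of a rise). Leaving out the highest WT values by itself moves the value toward a rise, and this was the only call of Cyp4a12a in 18 alternatives. Cyp4a12b measured 30.6, 33.6, 38.7, 49.1 and 87.8 CPM across WT and 22.9, 24.4, 26.3 and 26.1 CPM across OGT-deficient mice and fell by 0.94 on the log2 scale (SE 0.26, adjusted p = 0.00681). Because 48.9% and 49.4% of the stretches of the 2 copies are shared, their sum was also tested. It stood at 196.4 ± 74.4 CPM across WT and 198.4 ± 36.7 CPM across OGT-deficient mice (log2 fold change 0.01, SE 0.23, adjusted p = 0.962). Reads that align equally well to both copies are missing from this sum as well.

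The make-up of the Cyp4a transcripts differed accordingly. By CPM per kb of exon, Cyp4a12a held 17.4%, 9.63%, 44.1%, 45.4% and 33.4% of the summed level in libraries WT 1 to WT 5, and 77.1%, 85.0%, 78.7% and 79.6% in libraries OGT-deficient 1 to OGT-deficient 4. Cyp4a10 held 21.8% to 42.5% in WT and 1.5% to 3.9% across OGT-deficient mice. Cyp4a14 held 3.27% to 36.5% in WT and 1.41% to 3.8% across OGT-deficient mice, ranges that overlapped through WT 4. In WT 3 and WT 4 the share of Cyp4a14 was thus close to that of the OGT-deficient libraries, while the share of Cyp4a10 was not.

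**Figure D3:**
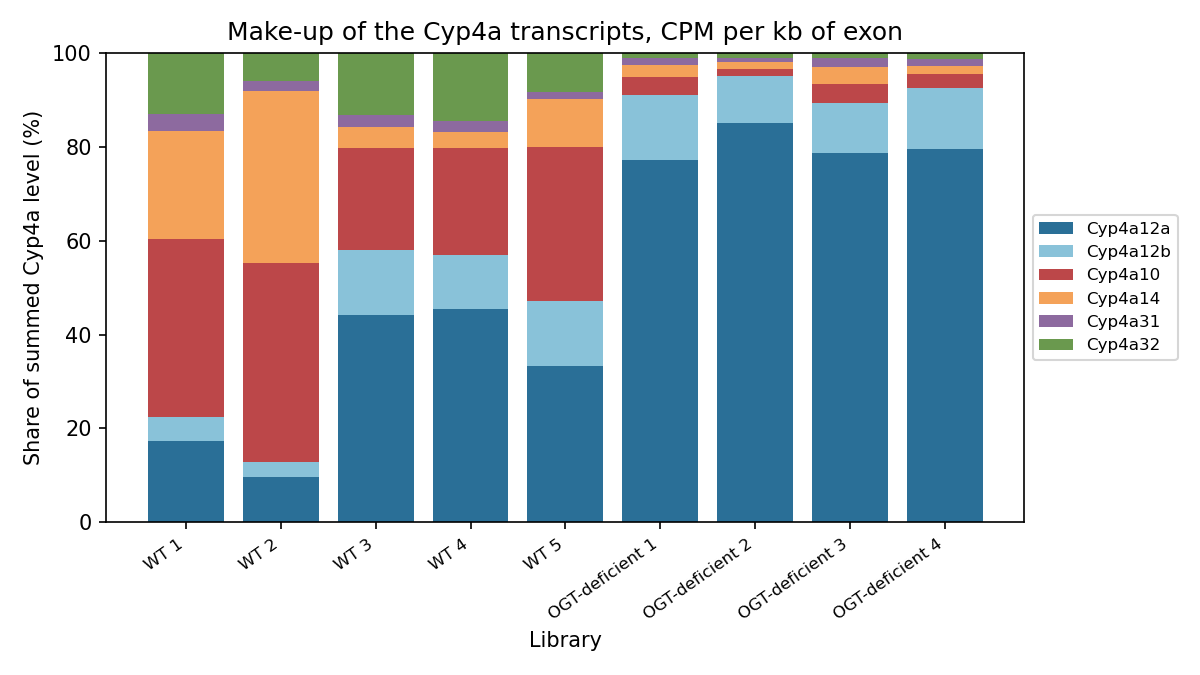
Share of each Cyp4a gene in the summed Cyp4a level of each library, in percent of CPM per kb of exon, with WT 1 to 5 followed by OGT-deficient 1 to 4. Cyp4a12a takes 9.63% to 45.4% in WT libraries and 77.1% to 85.0% in OGT-deficient libraries.

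Vnn1 encodes a pantetheinase that lies outside peroxisomes and is another PPARalpha target in liver. It measured 44.2, 41.7, 16.4, 24.8 and 40.5 CPM across WT and 26.1, 22.6, 29.7 and 25.0 CPM across OGT-deficient mice. The groups overlapped because WT 3 and WT 4 were low (log2 fold change -0.38, adjusted p = 0.186). Without WT 3 the value was -0.55 (adjusted p = 0.0118), but leaving out the lowest WT value of a gene by itself enlarges a fall. That was the only call of Vnn1 in 17 alternatives, whose values ranged from -0.55 to -0.21.

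Among WT mice, the genes of the set that varied most were often low or high in the same library. Over the whole set, WT 3 was the lowest WT library for 18 of the 37 genes and WT 2 the highest for 17. Relative to the WT mean, the median log2 level of the Cyp4a genes and Vnn1 was -1.03 in WT 3 and 0.32 in WT 2, that of the thioesterases was -0.78 in WT 3 and 0.21 in WT 2, and those of the peroxins and oxidation enzymes stayed between -0.14 and 0.11 in the 5 WT libraries. Within the OGT-deficient group, OGT-deficient 3 was the highest library for Cyp4a10, Cyp4a14 and Cyp4a31, and OGT-deficient 1 the lowest for 18 of the 37 genes. How often each library is the lowest or highest over all genes tested was not counted, so these counts may not be particular to the set.

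**Figure D4:**
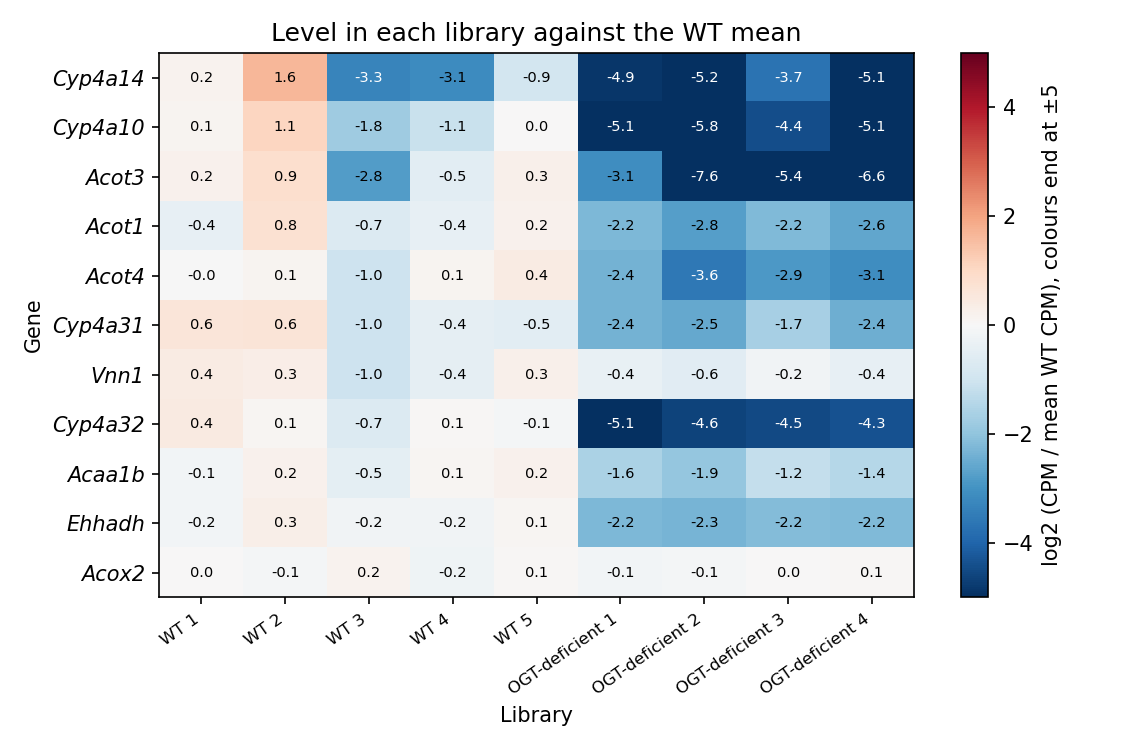
Level of 11 genes of the set in each library as log2 of its CPM over the mean WT CPM, written in each cell; colours end at ±5. The WT 3 column is low for Cyp4a14 (-3.3), Acot3 (-2.8) and Cyp4a10 (-1.8) and near 0 for Acox2 (0.2).

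Ratios between related genes were compared to ask whether partners changed unequally, since the scaling of the library cancels in a ratio. Each was tested by a two-sided exact permutation of the 9 libraries, with p-values adjusted over the 6 ratios, and the smallest p that 5 against 4 libraries allow is 0.0159. The log2 ratio of Acot1 to Acot2 was 2.85 ± 0.54 (SD, n = 5) in WT and 0.58 ± 0.19 (SD, n = 4) in OGT-deficient liver, a difference of -2.27 without overlap (exact p = 0.0159, adjusted 0.0381). The ratio of Cyp4a14 to Cyp4a12a differed by -3.87, again without overlap (exact p = 0.0159, adjusted 0.0381), with -3.06 when WT 2 and -4.49 when WT 4 was left out.

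The groups overlapped for the other ratios. Acot3 to Acot4 differed by -2.23 (-2.84 without OGT-deficient 1), Acaa1b to Acaa1a by -0.55 and Pex11a to Pex11g by -0.32 on the log2 scale (exact permutation p = 0.0317 for each, adjusted 0.0381). The ratio of Acox2 to Acox3 was 1.94 ± 0.05 over WT mice and 2.04 ± 0.23 over OGT-deficient mice, which did not pass the exact permutation test (p = 0.349). Leaving out a library makes the design smaller, and the adjusted p of the called ratios then ranged from 0.0429 to 0.0857.

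**Figure D5:**
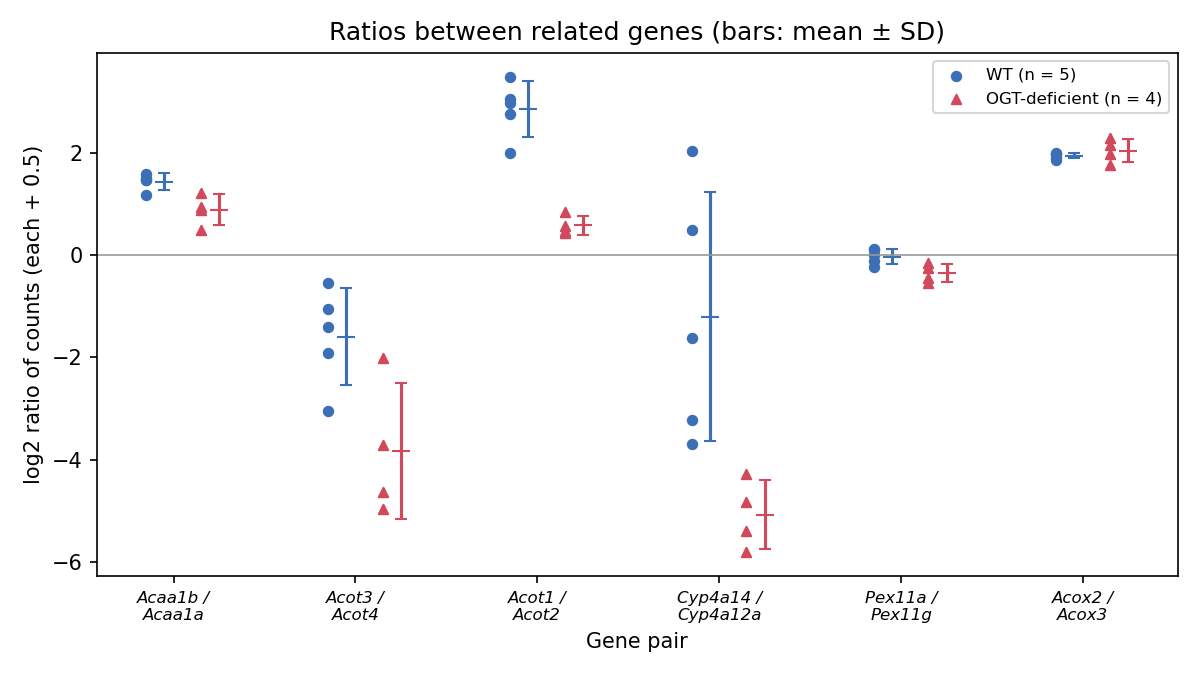
Log2 ratio of the read counts of 6 pairs of related genes in each library (0.5 added to each count), with WT as blue circles, OGT-deficient as red triangles and bars of the mean ± SD. The groups do not overlap for Acot1 to Acot2 and Cyp4a14 to Cyp4a12a, and cover each other for Acox2 to Acox3.

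Other genes of the peroxisome, from a list of 59 enzymes and transporters outside the set, fell more often than they rose. Of the 57 tested, 36 fell (63.2%) and 6 rose (10.5%), against 29.4% and 31.6% of all genes tested. Their median was -0.51 on the log2 scale. The largest fall among those with the smallest p was that of the membrane channel gene Pxmp2, from 120.2 ± 8.20 to 28.5 ± 1.66 CPM (log2 fold change -2.08), and Pecr, Pipox and Decr2 fell by 1.45, 1.45 and 1.46. Of 9 tested Cyp4 genes outside the Cyp4a subfamily, Cyp4f15 (-0.90), Cyp4f17 (-1.12), Cyp4f13 (-0.47) and Cyp4b1 (-0.75) fell, and Cyp4f39 (1.81), Cyp4f18 (1.19) and Cyp4f16 (0.73) rose. Cyp4b1, Cyp4f18 and Cyp4f16 were named after their values were seen.

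PPARalpha targets outside the peroxisome moved both ways. Of 32 tested, 18 fell (56.2%) and 7 rose (21.9%), against 29.4% and 31.6% of all genes tested (median log2 fold change of the 32, -0.32). The electron transfer gene Etfdh (-2.74), the lipid droplet gene Fitm1 (-4.14) and the fatty acid binding protein gene Fabp1 (-2.11) fell, while the lipid droplet gene Cidec rose (3.64). The fasting hormone gene Fgf21 (3.91) and the pyruvate dehydrogenase kinase gene Pdk4 (1.75), named after their values were seen, are among the others that rose. Among 24 factors of the pathway 13 fell (54.2%) and 2 rose (8.33%). Ppara, which encodes the receptor, measured 407.5, 407.3, 349.0, 450.1 and 413.3 CPM across WT and 214.0, 248.7, 224.5 and 223.1 CPM across OGT-deficient mice, without overlap (log2 fold change -0.83, adjusted p = 6.49e-06). The receptor genes Esrra (-1.07) and Nr1i3 (-2.90) fell, and Pparg (1.80) and Ppargc1a (0.52, named after its value was seen) rose.

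Lists of sex-biased liver genes were read beside the Cyp4a12 and Acot3 values. Of 13 tested male-biased genes 9 fell (69.2%) and 2 rose (15.4%), against 29.4% and 31.6% of all genes tested. Their median log2 fold change was -0.61. By p, the falls were led by Susd4 (-3.20), Mup12 (-5.34), Hsd3b5 (-1.72) and Ces2e (-0.61). Mup20 (1.81) and Elovl3 (0.46), named after their values were seen, rose. Of 7 tested female-biased genes, which include Acot3 itself, Cyp2a4 (3.47) and Cyp3a44 (1.44) rose and Acot3 and Cyp17a1 (-0.81) fell. Ddx3y was lower in OGT-deficient liver, at 55.4 to 60.9 CPM, than in WT, at 77.3 to 91.1 CPM, and the part of sex or of any such difference in the values of the set was not tested.

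Most markers of bile duct, stellate and macrophage cells were higher in OGT-deficient liver, while most endothelial and most lymphocyte and neutrophil markers were not called. Of all genes tested, 31.6% rose and 29.4% fell. Of 13 tested bile duct and progenitor markers 11 rose (median log2 fold change 3.33), and their summed level was 97.5 to 299.3 CPM across WT and 254.3 to 312.5 CPM across OGT-deficient mice. A single gene, Onecut1, held 237.9 CPM of the highest WT sum, and without it, an alternative chosen after the values were seen, the sums were 51.3 to 82.3 CPM across WT and 171.1 to 298.5 CPM across OGT-deficient mice. Among 14 markers of stellate cells and myofibroblasts 13 rose (median 1.66), with sums of 236.3 to 500.9 and 1027 to 1406 CPM. Of 18 macrophage markers 12 rose (median 0.81), with sums of 550.1 to 769.1 and 735.6 to 1027 CPM, ranges that overlapped. The other 6, Adgre1, Clec4f, Timd4, Vsig4, Csf1r and Lyz2, named after their values were seen, were not called. Endothelial markers summed to 513.4 to 718.4 and 315.6 to 596.2 CPM, with 1 of 11 higher (Vwf) and 3 lower (Clec4g, Oit3 and Stab2), and lymphocyte and neutrophil markers to 8.44 to 11.9 and 7.78 to 17.1 CPM, with 2 of 12 tested higher (S100a8 and S100a9). No marker found in the files was at 0 in all libraries. Spp1 is on both the bile duct and the macrophage list, and the part of any of these cells in the falls of the set was not tested.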

How the data were processed

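RNA-seq of whole mouse liver was analysed in 9 libraries, 5 WT and 4 OGT-deficient. The authors deposited, per library, unnormalized read counts for 24421 gene symbols and 5 summary lines, which stayed out of library sizes and tests. The submitters' processing notes name the build mm10 (GRCm38), the tool HTSeq 0.9.1 and the tool TopHat2 2.1.0. The summary lines hold 8.95 to 10.7% of uniquely aligned reads outside genes and 1.78 to 2.17% overlapping several genes. Non-unique alignments entered no gene count, which lowers the counts of near-identical genes and also the sums of such genes. No library duplicated another (16 pairs within groups, chi-square per degree of freedom 23.9 to 135.0).

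Counts were tested in R 4.3.3 with edgeR 4.0.16 (filterByExpr, trimmed-mean scaling, quasi-likelihood F test on group alone, Benjamini-Hochberg adjustment over 14104 genes, threshold 0.05). SE was derived from the log2 fold change and F. CPM uses the scaled library sizes; levels per length divide by the exonic length in GENCODE release 21. Ratios used counts plus 0.5 and exact permutation tests (scipy 1.17.1); figures used matplotlib 3.10.9.

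The alternatives were other scalings and filters, DESeq2 1.42.0, limma 3.58.1 (voom), the replicate number as a block, leaving out each library, summing near-identical genes and, added after the data were seen, leaving out WT 4 and WT 5. The set and its lists were chosen with earlier results of these data known. All 37 genes, up to 4 tested genes with the smallest p per list, Ppara and Ogt were named; some genes this rule took are not reported here.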

Additional observations from a re-analysis of the deposited data

Results flagged for a closer look

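Library values standing apart from the rest of their group were found in 7 of 86 groups of libraries of the set and its ratios, where chance gives about 1 in 20. Each value below had a gap to its nearest neighbour that was large against the range of its group. Pex11a was higher in OGT-deficient 4, at 29.8 CPM, than in the other three, at 22.9 to 23.3 CPM. Scp2 was lower in WT 2, at 5245 CPM, than in the other WT libraries, at 5443 to 5522 CPM. Acot3 in OGT-deficient 1 was 1.12 CPM against 0.0504 to 0.229 CPM, and Acot8 in the same library was 9.15 CPM against 12.1 to 12.7 CPM. Cyp4a14 in OGT-deficient 3 was 10.1 CPM against 3.71 to 4.53 CPM, and Cyp4a31 in the same library was 4.67 CPM against 2.55 to 2.87 CPM. The log2 ratio of Acaa1b to Acaa1a in WT 3 was 1.16 against 1.46 to 1.58 in the other WT libraries.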

How the results depend on the processing

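The number of genes of the set called lower was 27, and ranged from 22 (upper-quartile factors) to 28 (DESeq2) over the alternatives, 24 to 27 when each library was left out, while the number called higher was 0 in each except when both WT 4 and WT 5 were left out, where it was 1 (Cyp4a12a) with 24 lower. Upper-quartile factors moved the median of all genes from 0.02 to 0.14 and the share of higher calls from 51.8% to 62.5%, and the set's median relative to all genes was -0.58 and -0.59. Of the 27 genes called, 21 kept direction and call in every alternative, the exceptions being Pex5, Scp2, Phyh, Pex2, Pex16 and Cyp4a12b, which read 0.0143 when summed with Cyp4a12a. Signs changed for uncalled genes: Acox2 (0.0873 with upper-quartile factors, 0.0173 without WT 3, -0.0902 to 0.0173 when each library was left out), Acox3 (0.0006 with upper-quartile factors) and Acot2 (0.0047 with upper-quartile factors, 0.0174 with the replicate block, 0.02 without WT 1, 0.0278 without OGT-deficient 2, -0.2734 to 0.0278 when each was left out). Cat was called with DESeq2 (-0.23, adjusted p = 0.0293) and without OGT-deficient 4 (-0.32). Leaving out each library gave ratio differences of -0.66 to -0.42 (Acaa1b to Acaa1a), -2.84 to -1.86 (Acot3 to Acot4), -2.49 to -2.11 (Acot1 to Acot2), -4.49 to -3.06 (Cyp4a14 to Cyp4a12a) and -0.38 to -0.26 (Pex11a to Pex11g). Deviations of libraries with the same number had correlations of -0.103 to 0.104. With only 4 numbers, this cannot tell whether such libraries share more than a number. With the number as a block, 23 genes of the set were called lower. The same ratios were then -0.54, -2.19, -2.29, -3.97 and -0.29, none called, since 4 numbers allow no exact p under 0.125. Depth limits Acot3 most, with 2 to 53 reads per OGT-deficient library.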
